A study of Homo sapiens with 8 samples.

Results

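The set described here has 10 member genes. They are the forkhead transcription factors FOXO1, FOXO3 and FOXO4, the sestrins SESN1, SESN2 and SESN3, and the growth-restraint genes TXNIP, CCNG2, PIK3IP1 and FBXO32. The members were chosen by name, with earlier results of these data known, so comparing their changes with all genes is no test of the set. Every probe set whose single symbol in the platform annotation is one of these names was taken. This gave 36 of 41097 named probe sets and 10 of 19775 named genes. RNA was measured on 8 Affymetrix HG-U133 Plus 2.0 arrays from 2 human leukaemia lines labelled SUP-B8 and NALM-6, both described by the submitters as acute lymphoblastic leukaemia. The 4 groups were SUP-B8 with GSK126 at 0.5 uM, SUP-B8 with DMSO, NALM-6 with GSK126 at 0.5 uM and NALM-6 with DMSO, each kept for 72 hours and each with 2 arrays that the submitters call biological replicates. GSK126 selectively inhibits EZH2, the methyltransferase that places the repressive H3K27 trimethyl mark, and DMSO is its solvent. The labels give no EZH2 genotype for either line, and p-values measure the spread between arrays, whatever separated the replicates.

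FOXO factors carry out a large part of what happens when growth signalling is low. Active PI3K and AKT phosphorylate FOXO proteins and hold them in the cytoplasm, whereas in their absence FOXO proteins enter the nucleus and switch on genes of cell cycle arrest, death, stress defence and, in B-cell precursors, V(D)J recombination. Sestrins are stress-induced proteins that bind GATOR2 and so restrain mTORC1, the kinase complex that drives protein synthesis. TXNIP binds thioredoxin and lowers glucose uptake, CCNG2 is an unconventional cyclin linked to arrest, PIK3IP1 is a membrane protein that inhibits PI3K, and FBXO32 (atrogin-1) is a ubiquitin ligase subunit best known from wasting muscle.

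Values are log2 signals as deposited, and the array medians over all probe sets lay between 7.18 and 7.24. Where every array of a group read under its own median, the group was taken as not shown above background. Whether the arrays of compared groups overlapped describes their values only, because the share of non-overlapping features over all genes was not counted. Replicate arrays correlated at 0.9977 to 0.9982 over all probe sets, and arrays from opposite lines at 0.9203 to 0.9289. EZH2 itself did not pass the test for GSK126 minus DMSO in SUP-B8 (log2 difference -0.01 ± 0.06 SE, adjusted p = 0.974) or in NALM-6 (0.01 ± 0.06 SE, adjusted p = 0.925, limma), and the inhibitor acts on the protein, so its RNA checks neither label. All 6 measured B-lineage markers lay above the median on all 8 arrays and all 4 measured myeloid markers below it, while 3 of 5 T-cell, 2 of 3 fibroblast, 1 of 3 NK-cell and the 1 measured erythroid marker lay above it on all 8. Their summed levels in the 4 groups lay at 36.1 to 36.7 for T-cell, 24.3 to 24.4 for fibroblast and 20.5 to 21.6 for NK-cell markers, and their part in the results was not tested. Of the T-cell markers, CD3D, CD3E and CD5 lay above the median on all 8 arrays, and CD3G and CD2 lay below it on every array. The precursor-B gene DNTT averaged 13.54 with GSK126 and 13.67 with DMSO in arrays labelled SUP-B8, against 6.65 and 6.86 in those labelled NALM-6, where VPREB1, IGLL1 and RAG1 also lay below the medians, but VPREB3 and MME, the other two early-B markers, lay above them on all 8 arrays. The mature-B markers CCR7, CD86, CD40 and MS4A1 averaged 12.90, 11.39, 12.01 and 13.34 with DMSO in arrays labelled NALM-6. In those labelled SUP-B8 they averaged 5.64, 5.92, 9.52 and 8.03, and FCER2 lay below the medians on all 8 arrays. NALM-6 is usually described as a precursor-B line, so lines are named here strictly as the labels give them. Whether the labels match the lines was not tested, and every statement about a line rests on the labels. In RNA from whole cultures, fewer cells of a type and less RNA per cell cannot be told apart.

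**Figure D1:**
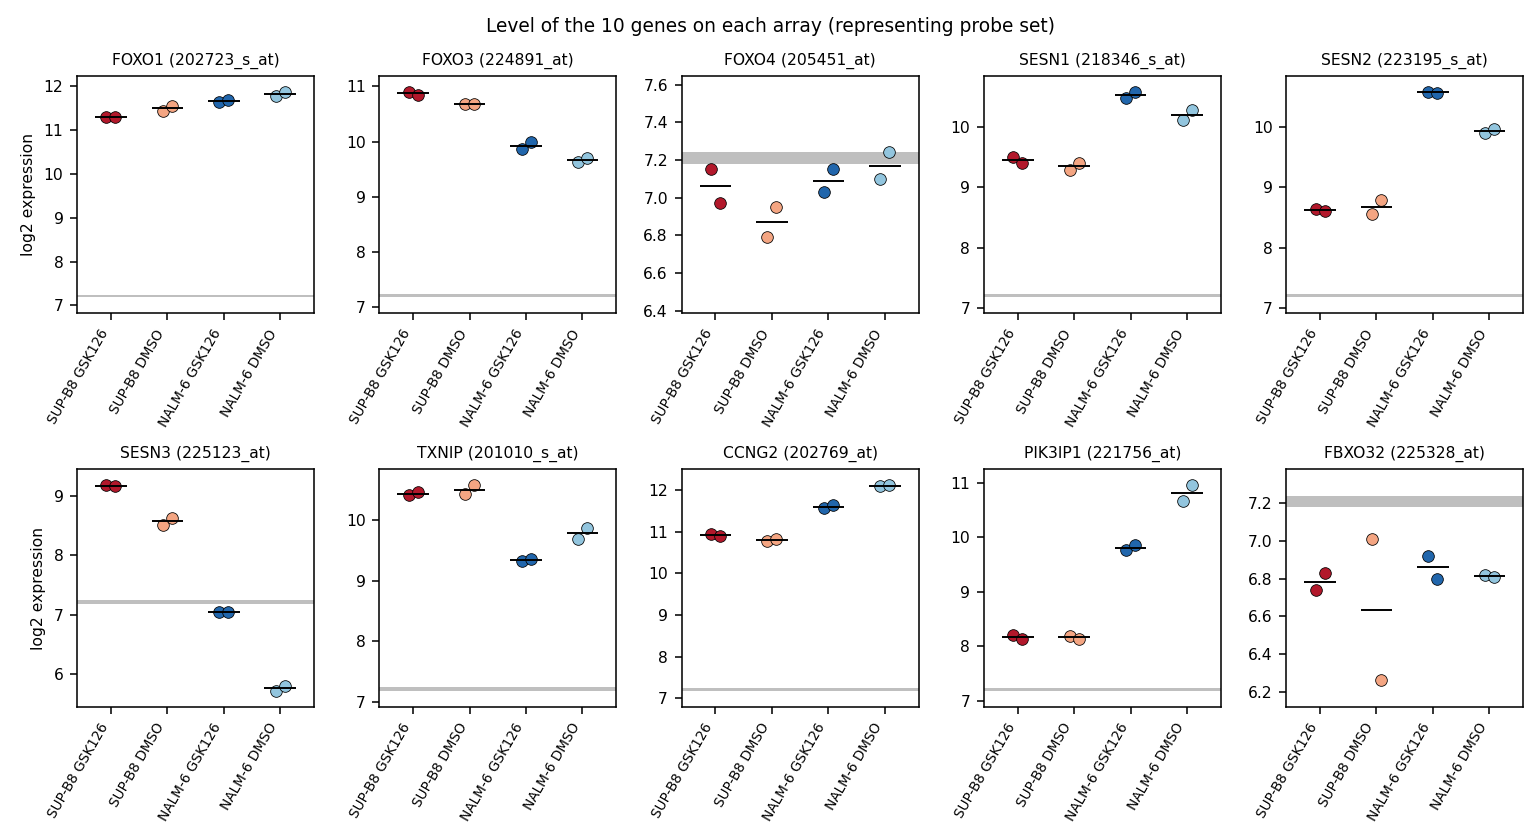
Log2 signal (vertical axis, scale set per panel) of the probe set that represents each of the 10 genes, with 1 point per array, a black line at the mean of the 2 arrays of a group and a grey band over the range of array medians (7.18 to 7.24). SESN3 lies above the band only in arrays labelled SUP-B8, FOXO4 lies at or under it in every group, and all FBXO32 arrays lie under it.

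The first question was which of these genes differed between GSK126 and DMSO in cells labelled NALM-6. The sestrins SESN1 and SESN2 and the transcription factor FOXO3 rose, while PIK3IP1, CCNG2 and TXNIP fell. FOXO1 lay slightly lower without passing the test on its representative probe set, and FOXO4 and FBXO32 were too dim to test. In this comparison 39.3% of the 13161 genes tested were called at an adjusted p under 0.05, 20.8% as higher and 18.5% as lower. Of the 8 members that passed the filter on dim probe sets, 4 were called higher and 3 lower. These counts include SESN3, which entered the test only through its signal in SUP-B8 and lay below the medians in both NALM-6 groups, and without it they were 3 and 3 of 7.

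FOXO3, a broadly expressed FOXO factor, rose. The probe set that represents it gave 9.87 and 9.99 with GSK126, against 9.63 and 9.71 with DMSO, so the arrays did not overlap (log2 difference 0.26 ± 0.06 SE, 1.19-fold, adjusted p = 0.00928, limma). Another of its probe sets rose by 0.20 (8.75 and 8.83 with GSK126, against 8.56 and 8.62 with DMSO), and its remaining tested probe set did not pass (0.12, adjusted p = 0.349 over probe sets). The call for FOXO3 was lost without DMSO replicate 1 (adjusted p = 0.0526) and without GSK126 replicate 2 (adjusted p = 0.0762). FOXO1, the main FOXO factor of early B-cell development, gave 11.64 and 11.69 with GSK126, against 11.77 and 11.87 with DMSO (-0.16 ± 0.06 SE, adjusted p = 0.0735). The arrays did not overlap, and its other probe set above the medians fell by 0.22 (10.77 and 10.71 with GSK126, against 10.96 and 10.97 with DMSO, adjusted p = 0.013 over probe sets). As the mean of its probe sets FOXO1 passed the test (-0.23, adjusted p = 0.00606, limma). That mean includes a probe set below the medians on all 8 arrays, which differed by -0.3. FOXO4 had 1 probe set, at 7.03 and 7.15 with GSK126, against 7.10 and 7.24 with DMSO. These values overlapped and lay near the array medians.

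SESN2, the sestrin that senses leucine and is induced through ATF4, rose the most among the sestrins measured above the array medians. The probe set that represents it gave 10.57 and 10.56 with GSK126, against 9.89 and 9.96 with DMSO (0.64 ± 0.07 SE, 1.56-fold, adjusted p = 2.82e-04, limma). Its other probe set gave 10.19 and 10.30 with GSK126, against 9.61 and 9.71 with DMSO (0.58). On both probe sets each treated array exceeded each DMSO array. SESN1, a p53-responsive sestrin, gave 10.48 and 10.58 with GSK126, against 10.11 and 10.29 with DMSO on its only probe set (0.33 ± 0.08 SE, 1.26-fold, adjusted p = 0.0117). That call was lost without DMSO replicate 1 (adjusted p = 0.0685) and without GSK126 replicate 2 (adjusted p = 0.0767). SESN3, known as a FOXO target, gave 7.05 and 7.05 with GSK126, against 5.72 and 5.81 with DMSO on its representative probe set. The arrays did not overlap and the test was passed (adjusted p = 3.57e-06), but both groups lay below the array medians, so no size is given. Its other 6 probe sets read 3.90 to 6.55 over all 8 arrays, and their differences in NALM-6 ran between -0.09 and 0.15.

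PIK3IP1, the inhibitor of PI3K, fell the most of the members. Its representative probe set gave 9.76 and 9.85 with GSK126, against 10.66 and 10.95 with DMSO (-1.0 ± 0.09 SE, 2.0-fold lower, adjusted p = 7.87e-05, limma). Another fell by 0.58 (8.94 and 8.92 with GSK126, against 9.46 and 9.58 with DMSO), and the one nearest the medians did not pass (-0.20, adjusted p = 0.0987 over probe sets). Size thus differed between probe sets, and as the mean of all 3 the fall was -0.59. CCNG2, the unconventional cyclin, gave 11.56 and 11.63 with GSK126, against 12.09 and 12.11 with DMSO (-0.51 ± 0.05 SE, 1.42-fold lower, adjusted p = 1.39e-04). Of its 5 probe sets 4 fell, by 0.23 to 0.51, and the one nearest the array medians did not pass (0.07). As the mean of its probe sets the fall was -0.32. TXNIP, the thioredoxin-binding arrestin relative, gave 9.33 and 9.36 with GSK126, against 9.69 and 9.87 with DMSO (-0.44 ± 0.07 SE, 1.35-fold lower, adjusted p = 0.00222). All 3 of its probe sets fell, and the largest fall was on a probe set at 8.27 and 8.47 with GSK126, against 8.94 and 9.22 with DMSO (-0.71). In all 3 genes every treated array lay below every DMSO array on each probe set that passed. This adds no support, since those probe sets were picked by passing. FBXO32 had 7 probe sets that read 3.75 to 7.01 over the 8 arrays, each below its array's median, and was not tested.

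At the level of probe sets, 41.1% of the 24848 tested were called in NALM-6. Of the 20 member probe sets tested, 6 were called higher and 10 lower. No gene had called probe sets in opposite directions. Over the 8 genes tested the median log2 difference was 0.05, against 0.02 over all genes tested, and the median absolute difference 0.47, against 0.14. Without SESN3 these were -0.16 and 0.44 over 7 genes. The members were chosen with earlier results of these data known, so these medians describe them and are no test of the set.

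**Figure D2:**
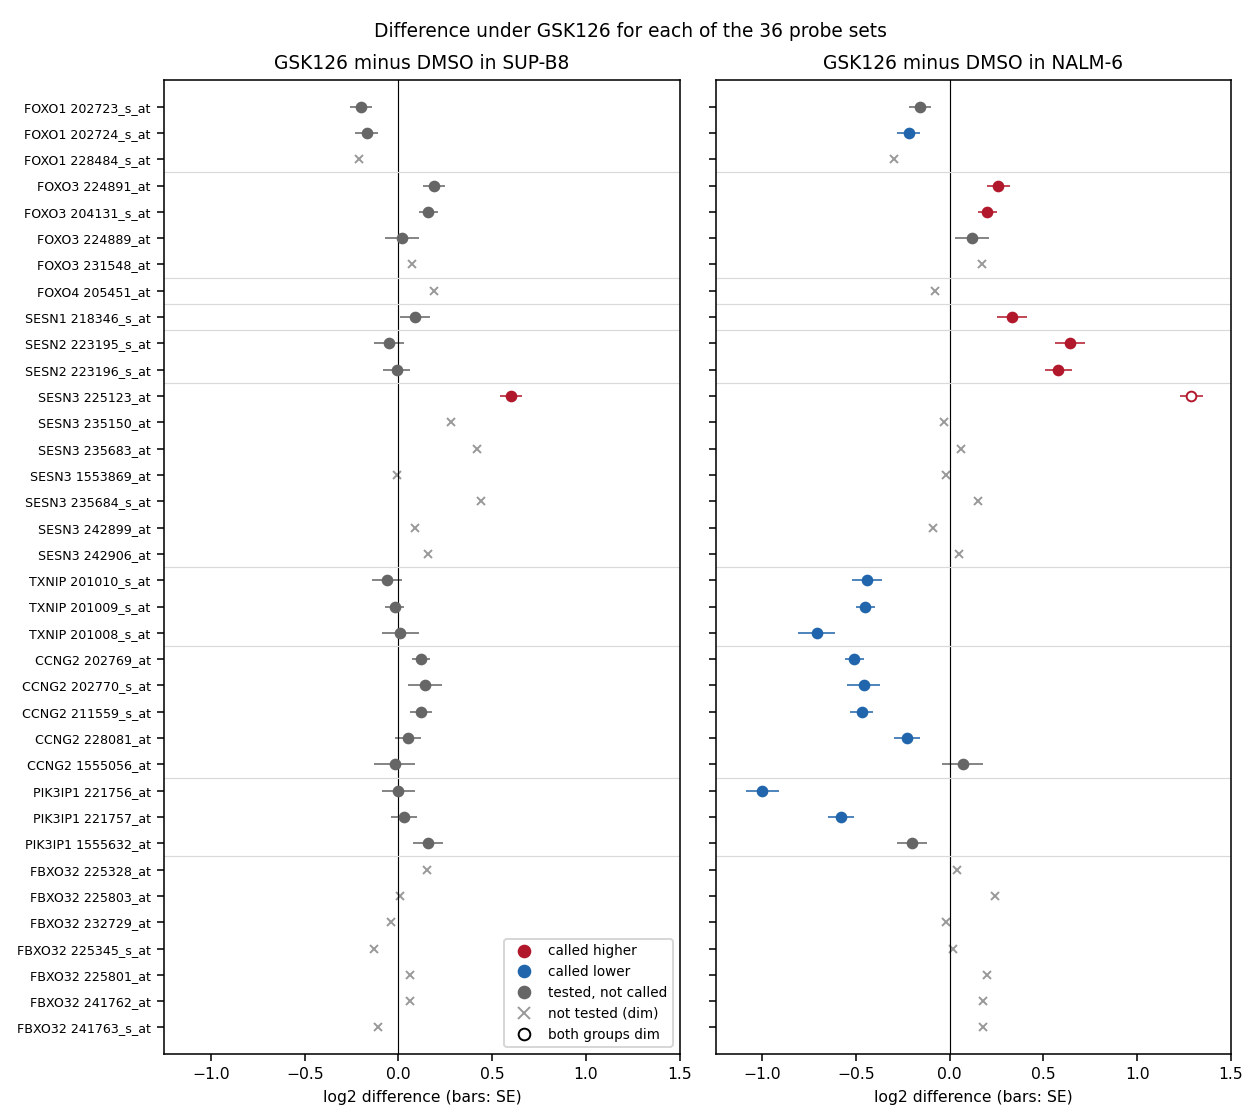
Log2 difference, GSK126 minus DMSO (horizontal axis), of each of the 36 member probe sets (rows), in SUP-B8 and in NALM-6, with bars of 1 SE from the model for the 20 tested and crosses for the dim ones. Colour marks calls at an adjusted p under 0.05. The probe sets of PIK3IP1 and TXNIP and 4 of the 5 of CCNG2 lie left of 0 in NALM-6 and near 0 in SUP-B8, and of the SESN3 probe sets only the one tested, hollow in NALM-6 because both groups there lay below the medians, is clearly right of 0 in both.

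Promoter sequence is shown for the 3 genes that fell together in NALM-6 and for SESN3, the member that also rose in SUP-B8. The windows come from RefSeq on GRCh38.p14 and run 250 bases before to 50 bases after an annotated start, written 5′ to 3′ on the gene's strand. Windows were found for 9 of the 10 members, 16 in all. Capitals mark GTAAACA, the core FOXO motif, or CACGTG, the E-box letters read by MYC and MondoA relatives, on either strand.
TXNIP at chr1:145996530-145996829, minus strand: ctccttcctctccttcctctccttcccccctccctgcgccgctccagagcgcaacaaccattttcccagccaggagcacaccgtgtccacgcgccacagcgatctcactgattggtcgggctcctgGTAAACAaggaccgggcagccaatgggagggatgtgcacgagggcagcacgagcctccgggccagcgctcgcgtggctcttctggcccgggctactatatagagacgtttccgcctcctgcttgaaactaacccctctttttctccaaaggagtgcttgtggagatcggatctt
PIK3IP1 at chr22:31292439-31292738, minus strand: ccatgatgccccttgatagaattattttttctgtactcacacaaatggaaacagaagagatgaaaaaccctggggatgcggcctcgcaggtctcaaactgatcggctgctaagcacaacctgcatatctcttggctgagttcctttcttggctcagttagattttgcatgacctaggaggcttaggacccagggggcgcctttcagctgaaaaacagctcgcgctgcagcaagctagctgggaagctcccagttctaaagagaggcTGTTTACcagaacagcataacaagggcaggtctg
CCNG2 at chr4:77156957-77157256, plus strand: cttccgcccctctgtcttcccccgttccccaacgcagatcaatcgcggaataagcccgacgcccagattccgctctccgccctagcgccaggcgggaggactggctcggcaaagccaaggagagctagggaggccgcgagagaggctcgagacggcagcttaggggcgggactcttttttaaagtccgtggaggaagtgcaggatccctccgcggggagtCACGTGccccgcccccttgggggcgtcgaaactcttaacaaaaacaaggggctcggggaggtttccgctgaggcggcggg
SESN3 at chr11:95232426-95232725, minus strand: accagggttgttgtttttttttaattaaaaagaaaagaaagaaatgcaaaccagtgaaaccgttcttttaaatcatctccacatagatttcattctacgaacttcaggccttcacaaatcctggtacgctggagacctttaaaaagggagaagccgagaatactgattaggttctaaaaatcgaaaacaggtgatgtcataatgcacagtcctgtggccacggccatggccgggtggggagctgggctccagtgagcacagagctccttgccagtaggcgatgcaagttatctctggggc
TXNIP and PIK3IP1 have 2 windows each, and the ones not shown hold none of the 3 motifs searched. The TXNIP window shown holds GTAAACA beginning at base -124 from the start, and the PIK3IP1 window shown holds it at base 17 after the start, in the reverse orientation. The other member window with this motif belongs to FOXO4. The CCNG2 window holds CACGTG at base -30, and neither motif is in the SESN3 window. GTAAACA occurred in 3.42% of all 35116 promoter windows of this length, and CACGTG in 7.26%. TGATGNAA, the composite site read by CHOP and ATF4, occurred in 3.62% and in 0 of the members' windows. None of the matches overlapped another motif, and these matches describe letters only.

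In cells labelled SUP-B8 the question was the same, and the members moved little. SESN3 rose, and no other member passed the test. Here 2.25% of the 13161 genes were called, 1.91% as higher and 0.334% as lower. Of the 8 members tested 1 was called higher and 0 lower by limma (3 and 1 at an unadjusted p under 0.05). The share of all genes at the unadjusted cut-off was not counted, so the unadjusted counts have no background to be read against. The median log2 difference over these 8 was 0.05, against -0.02 over all genes tested, and the median absolute difference 0.11, against 0.07. Of probe sets 1.55% were called, and of the members' 20 only 1, of SESN3.

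SESN3 gave 9.17 and 9.16 with GSK126, against 8.50 and 8.63 with DMSO, with no overlap (0.60 ± 0.06 SE, 1.52-fold, adjusted p = 0.00484, limma). Its other 6 probe sets lay below the medians, and their differences in SUP-B8 ran between -0.01 and 0.44. Of 8 omissions of an array 1 lost the SESN3 call, that of SUP-B8 GSK126 replicate 1, where the log2 difference was 0.60. Why the call was lost there was not tested. FOXO1 gave 11.30 and 11.30 with GSK126, against 11.44 and 11.56 with DMSO (-0.20 ± 0.06 SE, adjusted p = 0.167). FOXO3 gave 10.90 and 10.85 with GSK126, against 10.68 and 10.69 with DMSO (0.19 ± 0.06 SE, adjusted p = 0.177). In both FOXO genes the arrays did not overlap. Both passed under a variance prior that follows intensity (limma adjusted p = 0.0168 for FOXO1 and 0.0494 for FOXO3). That prior raised the genes called in SUP-B8 from 296 to 777, and over probe sets FOXO3 did not pass under it. SESN1 gave 9.50 and 9.40 with GSK126, against 9.29 and 9.41 with DMSO (0.09, adjusted p = 0.591). SESN2 gave 8.64 and 8.60 with GSK126, against 8.55 and 8.78 with DMSO (-0.05, adjusted p = 0.781). Both sestrins overlapped between the groups.

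PIK3IP1 gave 8.21 and 8.13 with GSK126, against 8.19 and 8.14 with DMSO (0.00 ± 0.09 SE, adjusted p = 0.993). TXNIP gave 10.41 and 10.46 with GSK126, against 10.42 and 10.57 with DMSO (-0.06 ± 0.07 SE, adjusted p = 0.742). Both genes overlapped between the groups, on the brightest probe set shown. CCNG2 gave 10.94 and 10.90 with GSK126, against 10.77 and 10.83 with DMSO, without overlap (0.12 ± 0.05 SE, adjusted p = 0.297). FOXO4 gave 7.15 and 6.97 with GSK126, against 6.79 and 6.95 with DMSO, all below the medians.

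Whether the response differed between the labels was tested directly, as the response in SUP-B8 minus that in NALM-6. PIK3IP1, CCNG2 and TXNIP gave positive differences that passed, having fallen in NALM-6 with no call in SUP-B8, and SESN2 gave a negative one. Over all genes 25.4% were called, 10.9% as positive and 14.5% as negative, and of the 8 members 3 were positive and 2 negative (3 and 1 of the 7 without SESN3). With each array centred on its median, 1562 genes were positive and 1379 negative, against 1440 and 1903 as deposited, so the split over all genes depends on the scaling. For probe sets 26.4% were called, and of the members' 20 there were 8 positive and 3 negative, SESN3's among these 3.

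The difference of responses was 1.0 ± 0.13 SE for PIK3IP1 (adjusted p = 0.00104, limma) and 0.66 as the mean of its probe sets. For CCNG2 it was 0.62 ± 0.07 SE (adjusted p = 6.81e-04) and 0.40 as the mean of its probe sets. For SESN2 it was -0.69 ± 0.10 SE (adjusted p = 0.00242): this sestrin rose in NALM-6, and its arrays overlapped in SUP-B8. SESN3 also passed, but no difference of responses is given for it, since both NALM-6 groups lay below the medians. TXNIP gave 0.38 ± 0.11 SE (adjusted p = 0.0329) and all 3 of its probe sets passed, at 0.38, 0.43 and 0.72. Its call at the gene level was lost with no filter on dim probe sets (adjusted p = 0.0593) and in 6 of 8 omissions of an array, the exceptions being SUP-B8 DMSO replicate 2 and NALM-6 DMSO replicate 1, and the adjusted p reached 0.0972. The other 3 members did not pass, which does not show equal responses: SESN1 gave -0.24 ± 0.11 SE (adjusted p = 0.168), FOXO3 -0.07 ± 0.08 SE (adjusted p = 0.596) and FOXO1 -0.04 ± 0.09 SE (adjusted p = 0.786).

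**Figure D3:**
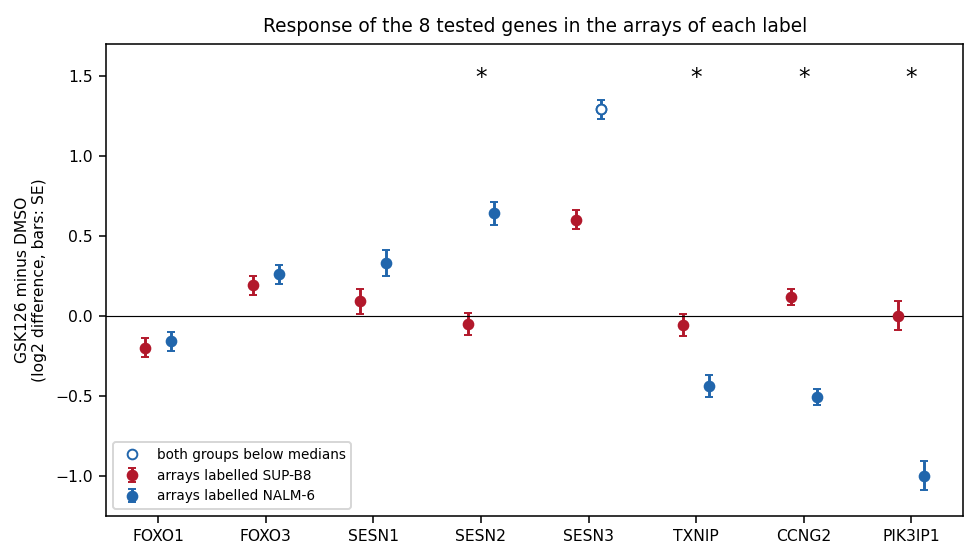
Log2 difference, GSK126 minus DMSO, in SUP-B8 and in NALM-6 for the probe set that represents each of the 8 genes tested, with bars of 1 SE from the model. An asterisk marks PIK3IP1, CCNG2, TXNIP and SESN2, whose response differed between the labels at an adjusted p under 0.05. The hollow point is SESN3 in NALM-6, where both groups lay below the medians.

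The last comparison set the lines against each other under DMSO, as SUP-B8 minus NALM-6. It shares its DMSO arrays with both responses, so its values are given on their own. FOXO3, TXNIP and SESN3 were higher in SUP-B8, and FOXO1, SESN1, SESN2, CCNG2 and PIK3IP1 were lower. Over all genes 68.3% were called, 37.8% as higher and 30.6% as lower, so all 8 members passing is read against a background in which most genes passed. The median log2 difference over the 8 was -0.59, against 0.04 over all genes, and the median absolute difference 1.14, against 0.35. SESN3 entered the test only through its signal in SUP-B8, the line where it was higher. Without SESN3, 2 of 7 members were higher and 5 lower, and these medians were -0.85 and 1.01. For probe sets 70.1% were called, and of the members' 20 there were 7 higher and 12 lower.

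PIK3IP1 averaged 8.17 ± 0.03 in SUP-B8 and 10.81 ± 0.20 in NALM-6 (SD, n = 2 arrays each), a log2 difference of -2.64 ± 0.09 SE (6.24-fold lower, adjusted p = 3.01e-08, limma). Its probe sets differed in size, and their mean gave -1.52. CCNG2 averaged 10.80 ± 0.04 in SUP-B8 and 12.10 ± 0.02 in NALM-6 (-1.30 ± 0.05 SE, adjusted p = 7.02e-08). SESN2 averaged 8.66 ± 0.16 in SUP-B8 and 9.92 ± 0.05 in NALM-6 (-1.26 ± 0.07 SE, adjusted p = 8.18e-07). Together with SESN1, at 9.35 ± 0.09 in SUP-B8 and 10.20 ± 0.13 in NALM-6 (-0.85 ± 0.08 SE, adjusted p = 1.73e-05), this put both sestrins lower in SUP-B8. SESN3 ran the other way, at 8.57 ± 0.10 in SUP-B8 and 5.76 ± 0.06 in NALM-6, where it was not shown above background. Its difference was at least 1.37 on the log2 scale. Its test is not used as support, since SESN3 passed the filter only through SUP-B8, the line where it was higher.

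Of the FOXO factors, FOXO3 averaged 10.68 ± 0.01 in SUP-B8 and 9.67 ± 0.06 in NALM-6 (1.01 ± 0.06 SE, 2.02-fold higher, adjusted p = 7.48e-07, limma), and 0.59 higher as the mean of its probe sets. FOXO1 averaged 11.50 ± 0.09 in SUP-B8 and 11.82 ± 0.07 in NALM-6 (-0.33 ± 0.06 SE, adjusted p = 0.00124). The 2 FOXO factors that could be tested thus differed between the lines in opposite directions. TXNIP averaged 10.49 ± 0.11 in SUP-B8 and 9.78 ± 0.12 in NALM-6 (0.71 ± 0.07 SE, adjusted p = 3.39e-05).

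Set in order over the 4 groups, the genes fell into a few arrangements. PIK3IP1 and CCNG2 were highest in NALM-6 with DMSO and next in NALM-6 with GSK126, and the SUP-B8 groups, not told apart by the test, were lowest. SESN1 and SESN2 were highest in NALM-6 with GSK126 and next in NALM-6 with DMSO, again with both SUP-B8 groups lowest and not told apart. TXNIP was lowest in NALM-6 with GSK126 and next in NALM-6 with DMSO, and the SUP-B8 groups overlapped above them. For FOXO3 the order was SUP-B8 with GSK126, SUP-B8 with DMSO, NALM-6 with GSK126 and NALM-6 with DMSO, of which the SUP-B8 pair did not pass the test. FOXO1 ran in the opposite order, highest in NALM-6 with DMSO and lowest in SUP-B8 with GSK126, and neither treatment pair passed on its representative probe set. SESN3 was highest in SUP-B8 with GSK126, lower in SUP-B8 with DMSO, and below the medians in both NALM-6 groups.

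The wider pathway was read from 7 lists of related genes, chosen, as the members were, with earlier results of these data known. Counts are given against the shares of all genes named above, and no test was made on a list. In NALM-6 the list of FOXO target genes had 5 higher and 10 lower of 28 tested, with a median log2 difference of -0.07 (0.02 over all genes tested). TRIB1, a pseudokinase, rose by 1.80 (10.23 and 10.22 with GSK126, against 8.34 and 8.51 with DMSO). TNFSF10, the death ligand TRAIL, rose by 1.33 (8.78 and 8.76 with GSK126, against 7.42 and 7.47 with DMSO). GADD45B, a stress-response gene, fell by 1.61 (10.50 and 10.55 with GSK126, against 12.03 and 12.24 with DMSO), and KLF6, a zinc-finger factor, fell by 0.89. TRIB1 was 0.85 higher as the mean of its probe sets. Genes of this list were called in both directions, as were all genes tested (20.8% higher and 18.5% lower).

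Among PI3K and AKT genes above FOXO, 5 were higher and 7 lower of 20 tested in NALM-6 (median 0.02). PHLPP1, a phosphatase that inactivates AKT, fell by 0.78 (9.19 and 9.27 with GSK126, against 9.95 and 10.06 with DMSO), and its other probe set differed by -0.08. INSR, the insulin receptor, fell by 0.45, and SGK1, a kinase related to AKT, rose by 0.41. IGF1R rose by at least 0.10, since its DMSO arrays lay below the medians. The SGK1 call was lost without DMSO replicate 1 or without GSK126 replicate 1 (adjusted p up to 0.0655). For regulators and cofactors of FOXO proteins the count was 4 higher and 5 lower of 21 (median -0.04). STK3, the MST2 kinase, rose by 0.73, MAPK8, which encodes JNK1, rose by 0.38, IKBKB, the kinase IKK-beta, rose by 0.49, and SIRT1, a deacetylase of FOXO proteins, fell by 0.46. IKBKB did not pass as the mean of its probe sets (0.11, adjusted p = 0.145), and STK3 was 0.48 there.

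Sestrin partners and mTORC1 genes had 7 higher and 11 lower of 31 in NALM-6 (median -0.10). DDIT4 (REDD1), a stress-induced inhibitor of mTORC1, rose by 1.31 (11.82 and 11.77 with GSK126, against 10.39 and 10.58 with DMSO). DEPTOR, an inhibitory subunit of mTOR complexes, rose by 0.77. The Rag GTPases moved apart: RRAGD rose by 0.76 and RRAGC fell by 0.97 (10.33 and 10.27 with GSK126, against 11.19 and 11.35 with DMSO). Of the stress regulators of sestrins 4 were higher and 5 lower of 12 (median -0.11). CHAC1, a glutathione-degrading enzyme induced through ATF4, rose by 1.34 (11.05 and 10.90 with GSK126, against 9.61 and 9.64 with DMSO). SQSTM1 (p62) fell by 0.81, NFE2L2, which encodes the antioxidant regulator NRF2, fell by 0.46, and HMOX1 (heme oxygenase 1) fell by 0.40. As the mean of their probe sets SQSTM1 gave -0.51 and NFE2L2 -0.27. The HMOX1 value depended on single arrays: it was -0.61 without DMSO replicate 1 and -0.18 without DMSO replicate 2, and the call was lost without DMSO replicate 2 or either GSK126 replicate (adjusted p up to 0.117).

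TXNIP partners and glucose-sensing genes had 4 higher and 5 lower of 19 in NALM-6 (median -0.02). SLC2A3, the glucose transporter GLUT3, fell by 1.02 (8.31 and 8.18 with GSK126, against 9.24 and 9.30 with DMSO), and ARRDC2, an arrestin relative of TXNIP, fell by 0.60. MLXIP, which encodes MondoA, rose by 0.59 (0.23 as the mean of its probe sets), and NEDD4L, a ubiquitin ligase, fell by 0.64. NEDD4L did not pass as the mean of its probe sets (-0.06, adjusted p = 0.326). Relatives of CCNG2 and FBXO32 had 3 higher and 2 lower of 10 (median -0.06). FBXO25, the closest relative of FBXO32, rose by 0.24, GAK, the cyclin G-associated kinase, by 0.23 and PPP2R5C, a PP2A regulatory subunit, by 0.23, while CCNI fell by 0.20. All 4 of these were unstable. FBXO25 was lost without DMSO replicate 2 or GSK126 replicate 1 (adjusted p up to 0.0883), and CCNI was lost without either DMSO replicate or without GSK126 replicate 1 (adjusted p up to 0.130) and was -0.31 as the mean of its probe sets. PPP2R5C was lost without GSK126 replicate 1 (adjusted p = 0.0629) and turned to -0.05 as the mean of its probe sets, where GAK gave 0.14 (adjusted p = 0.0581).

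In SUP-B8 few genes of these lists passed, and 8 in all are named. KLF2, a FOXO target that keeps lymphocytes quiescent, rose by 0.70 (8.62 and 8.64 with GSK126, against 8.05 and 7.80 with DMSO). BCL6, a repressor and FOXO target, rose by 0.34 (11.75 and 11.70 with GSK126, against 11.37 and 11.40 with DMSO), IRS1, an insulin receptor adaptor, by 0.32, MAPK8 by 0.32, FBXO25 by 0.33 and ARRDC3, another arrestin relative of TXNIP, by 0.31. DEPTOR rose by at least 0.06, and PIK3CD, the PI3K catalytic subunit of lymphocytes, fell by 0.25. Of the 12 stress regulators of sestrins tested, 0 passed by limma (0 higher and 4 lower at an unadjusted p under 0.05). The unadjusted counts here too have no share of all genes beside them. All 8 calls were lost without SUP-B8 GSK126 replicate 1, where the adjusted p of KLF2 was 0.0559. Without any other single SUP-B8 array KLF2 kept its call and the other 7 lost theirs, and over all settings tried those 7 lost the call in 5 to 13 each. As the mean of its probe sets KLF2 gave 0.39, BCL6 0.23 and MAPK8 0.20.

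**Figure D4:**
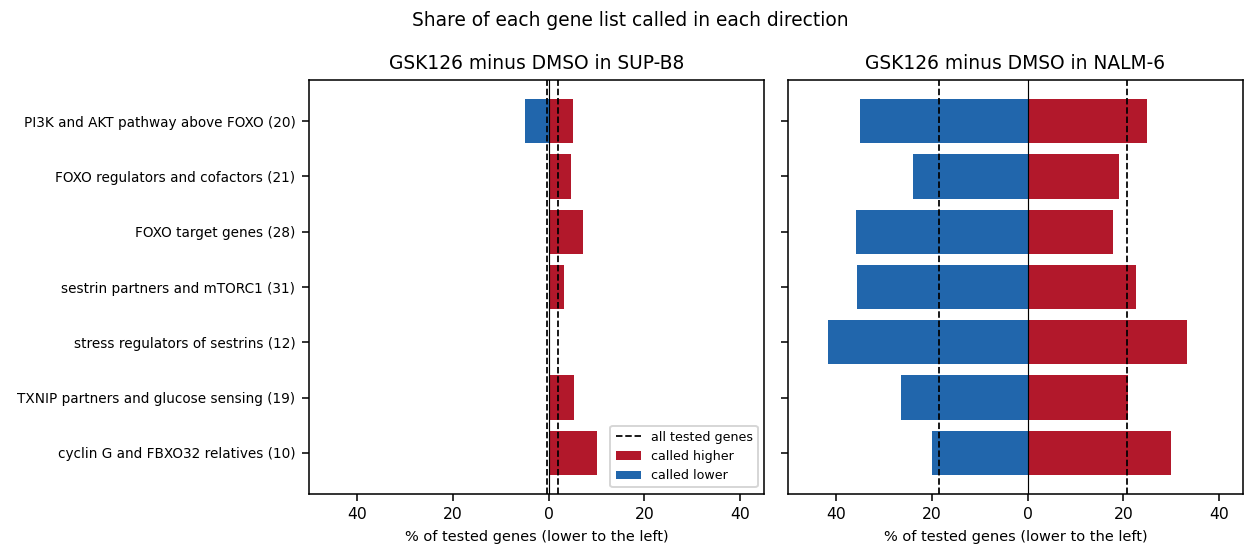
Percent of the genes tested in each of the 7 lists that were called higher or lower for GSK126 minus DMSO in SUP-B8 and in NALM-6 (horizontal axes), with dashed lines at the share over all genes tested. In NALM-6 each list has genes on both sides, for example 5 higher and 10 lower of 28 FOXO target genes.

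The difference of responses passed for 25.4% of all genes tested, 10.9% as positive and 14.5% as negative. Against these shares, every list had genes on both sides. FOXO target genes had 8 positive and 5 negative of 28, and sestrin partners and mTORC1 genes 8 and 6 of 31. PI3K and AKT genes had 3 and 3 of 20, FOXO regulators 1 and 4 of 21, and stress regulators 3 and 4 of 12. TXNIP partners had 4 and 3 of 19, and relatives of CCNG2 and FBXO32 1 and 2 of 10. TRIB1 had the most negative value (-1.85 ± 0.09 SE, adjusted p = 1.36e-05, limma), and -0.91 as the mean of its probe sets. CHAC1 followed at -1.52 ± 0.09 SE and DDIT4 at -1.26 ± 0.10 SE. On the positive side stood GADD45B at 1.60 ± 0.15 SE and RRAGC at 0.98 ± 0.10 SE. Each of these genes had moved in NALM-6, and none of them was called in SUP-B8.

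Between the lines under DMSO 68.3% of all genes tested were called, 37.8% as higher in SUP-B8 and 30.6% as lower. The list counts are read against these shares, and some list genes differed widely. Among FOXO targets, 13 were higher and 13 lower in SUP-B8 of 28. RAG1 and RAG2, the recombinase genes, were higher by at least 3.37 and 3.25 on the log2 scale, and IL7R, the interleukin-7 receptor, by at least 5.39, since NALM-6 lay below the medians for all 3. CCR7, a homing receptor, was lower by at least 5.70, with SUP-B8 below the medians. SGK1 was lower by at least 4.89, and RRAGD was higher by 3.72 ± 0.05 SE. RAG1, RAG2, IL7R, CCR7 and SGK1 would not have passed the filter without the line where they were higher. The list counts include them, and their calls are no support. Of the stress regulators 3 were higher and 7 lower of 12, with DDIT3, which encodes CHOP, at -1.97 ± 0.06 SE. The other lists had 12 higher and 7 lower of 20 PI3K and AKT genes, 13 and 3 of 21 FOXO regulators, 17 and 8 of 31 sestrin partners and mTORC1 genes, 8 and 5 of 19 TXNIP partners, and 5 and 3 of 10 relatives of CCNG2 and FBXO32.

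The genes most like each member in pattern were found by Pearson correlation of log2 values over the 8 arrays, for the 7 members whose range was at least 1. The arrays share the line difference, so the correlations largely restate which genes differ between lines, and they carry no p. PIK3IP1 was most like BORCS5 (r = 0.999) and NEK2 (r = 0.9987), and CCNG2 most like REL (r = 0.998) and LMO2 (r = 0.9979). TXNIP was closest to PNMA1 (r = 0.9988) and POLR1F (r = 0.9986). FOXO3 lay closest to AUTS2 (r = 0.9986) and TPM1 (r = 0.9986). Of the sestrins, SESN1 was most like TMEM218 (r = 0.9997) and OCIAD1 (r = 0.9982), SESN2 most like ZNF585B (r = 0.9995) and DGKA (r = 0.9995), and SESN3 most like WSB2 (r = 0.9988) and GPAA1 (r = 0.9981). None of these 14 genes is in the lists of related genes.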

How the data were processed

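The deposited table holds log2 values for 54675 probe sets on 8 arrays, 1 value per probe set and array. The submitters' processing notes name MAS5 and RMA, whose role and version are not given in the sources used here, and the near-equal array medians were taken as normalization between arrays by the authors. Such values hide any shift common to most transcripts.

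The platform annotation gave 1 symbol for 41097 probe sets. A gene was represented by its probe set with the highest mean, and features with at least 2 arrays above their array's median were tested, which left 13161 genes and 24848 probe sets. The test was limma 3.58.1 in R 4.3.3 with one mean per group and 4 residual degrees of freedom, and p-values were adjusted by Benjamini-Hochberg over all features tested. With 2 arrays against 2 an exact permutation test cannot go below a two-sided p of 0.333, so calls rest on the model. Python 3.11.15 prepared the tables. The number of arrays limits the precision.

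Every member was reported. From each list up to 4 called genes of largest difference were eligible to be named for a comparison. The members and lists were chosen with earlier results of these data known, and so was the rule for groups below the array medians, under which a difference is given as at least the distance of the other group to the medians. List genes with no single-symbol probe set were not analysed here. Alternatives covered the filter, the choice of probe set, a replicate block, renewed normalization, centring, another variance prior, a fit of only the arrays compared, and leaving out each array.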

Additional observations from a re-analysis of the deposited data

Results flagged for a closer look

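The response to GSK126 differed between the labels for 4 members by the test of the difference itself, given as the response in SUP-B8 minus that in NALM-6 on the log2 scale. The values were 1.0 for PIK3IP1, 0.62 for CCNG2, 0.38 for TXNIP and -0.69 for SESN2.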

How the results depend on the processing

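Counts for SUP-B8 depended most on the processing. The 296 genes called there became 160 with no filter on dim probe sets, 777 with a variance prior that follows intensity, 191 with only the arrays compared and 27 to 217 when an array was left out, with 27 without SUP-B8 GSK126 replicate 1. The 385 probe sets called there became 220, 1190 and 240 in the same settings and 38 to 318 when an array was left out. The single member called in SUP-B8, SESN3, became 0 members when all 8 arrays had to lie above their medians or when a gene's probe sets were averaged, since it then failed the filter, and 3 with the other prior. Leaving out an array gave 0 to 1 members. Of member probe sets, 2 were called with the other prior and 0 to 1 when an array was left out. PPP2R5C in NALM-6 turned to -0.046 as the mean of its probe sets. Over the 159 called results for single genes or probe sets, 148 of 2377 alternative values lost the call and 1 reversed, and over the 48 results not called 12 of 689 gained one. Results that failed the filter under an alternative were left out of these counts and not taken as lost, SESN3 in SUP-B8 among them. In NALM-6 the split was 2255 higher and 2621 lower with arrays centred on their median and 3160 and 2406 with renewed quantile normalization, against 2741 and 2437 as deposited. The cause of these shifts was not tested.

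The correlation of deviations between samples of the same replicate number was -0.04 within SUP-B8 and -0.02 within NALM-6, and ran from -0.20 to 0.13 over all 6 pairs of groups, so the numbers were not taken to pair the samples. With the replicate block 202 genes were called in SUP-B8, 4972 in NALM-6, 3058 for the difference of responses and 8848 between lines. Members called under the block were 1, 7, 5 and 8 in that order, which changed no member's call. Dim probe sets limit SESN3 in NALM-6, FOXO4 and FBXO32.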

Other observations

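Another 3 probe sets are annotated to FOXO3 and FOXO3B together and were left out of the members. Their differences, GSK126 minus DMSO, were 0.22, 0.16 and 0.02 in SUP-B8 and 0.18, -0.02 and 0.20 in NALM-6. Under DMSO they read 0.85, 0.58 and 0.48 higher in SUP-B8 than in NALM-6. These values were not tested.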
